A study of Mus musculus with 6 samples.

Results

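Central and follicular T cell regulators are 9 genes that set whether a T cell stays in a resting, recirculating state or moves into the B cell follicle: Bcl6, Tox, Tox2, Tcf7, Lef1, Id3, Klf2, Cxcr5 and Ascl2. They were taken by symbol from a table of 23992 gene symbols, keeping the transcript row with the most reads for each symbol. All 9 were in the table, in 11 rows, and 8 passed the filter on low counts that left 12720 genes for testing. Ascl2 did not.

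RNA was sequenced from mouse regulatory T (Treg) cells, a CD4 T cell lineage that depends on the factor Foxp3 and dampens immunity. The WT group (3 libraries) carried Foxp3YFP-Cre, which drives Cre and a yellow fluorescent protein from the Foxp3 gene. The KO group (3 libraries) carried the same allele with floxed Crlf2, the gene of the TSLP receptor subunit, so that Crlf2 is deleted in cells that express Foxp3. Per the labels, the mice were males on the CD45.2 background, and live CD4+YFP+ cells were sorted from pooled spleen and lymph nodes; no age is given. The title of the deposited table names lung instead, and the strain line of each sample description names the other group's strain, so groups were taken from sample title and genotype tag. The labels do not say whether the replicates are different animals. The p-values therefore reflect only how far these samples spread, which may be technical.

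BCL6 is the transcriptional repressor that defines follicular T cells, including the follicular regulatory cells that arise from Treg cells. TCF-1 (Tcf7) and LEF-1 (Lef1) are related DNA-binding factors of naive, central memory and follicular T cells, TOX and TOX2 are related HMG-box proteins that rise with T cell receptor signalling, and ASCL2 and CXCR5 act in migration to the follicle. KLF2 and ID3 restrain the follicular programme: KLF2 keeps the genes of recirculation on, and ID3 blocks E proteins. Cytokine signals through STAT5, the pathway used by TSLP, IL-7 and IL-2 receptors, are known to lower Bcl6 in T cells.

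The promoter of Bcl6 is shown because Bcl6 was the member called lower in KO and because both of its windows hold the spaced motif TTCNNNGAA, which STAT5 binds and BCL6 sites resemble. RefSeq (GRCm38.p6) gave promoter windows for 7 of the 9 members, 16 windows in all, and the 250 bases before each start site were searched. Capitals mark TTCNNNGAA and CTTTG, the core of TCF-1 and LEF-1 sites, on either strand. Both windows are on the minus strand of chromosome 16, the first at chr16:23988853-23989102 and the second at chr16:23981284-23981533, and no GENCODE M21 exon overlaps either. The second lies inside the gene.
Bcl6 window 1: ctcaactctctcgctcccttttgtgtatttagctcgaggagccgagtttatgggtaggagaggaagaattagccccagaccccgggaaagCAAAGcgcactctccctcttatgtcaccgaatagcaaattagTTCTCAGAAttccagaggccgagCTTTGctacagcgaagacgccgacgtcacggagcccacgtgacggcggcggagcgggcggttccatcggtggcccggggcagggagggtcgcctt
Bcl6 window 2: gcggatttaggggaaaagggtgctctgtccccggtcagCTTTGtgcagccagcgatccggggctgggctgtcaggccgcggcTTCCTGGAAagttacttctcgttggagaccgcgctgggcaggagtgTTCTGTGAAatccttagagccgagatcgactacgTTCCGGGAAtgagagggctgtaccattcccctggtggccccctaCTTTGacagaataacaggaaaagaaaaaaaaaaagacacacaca
Window 1 holds a TTCNNNGAA match, TTCTCAGAA, starting 118 bases before the start site. Window 2 holds 3 matches, TTCCTGGAA, TTCTGTGAA and TTCCGGGAA, starting 168, 122 and 88 bases before it. TTCNNNGAA is its own reverse complement, so the strands were not counted separately. Of 32851 promoter windows of the same length, 7.02% held a match, and among the 16 windows of the members it was these 2 windows of Bcl6. CTTTG was in 8 of the 16 windows (Bcl6, Lef1 and Tox2) and in 48.6% of all windows. The E-box CANNTG was in 11 of the 16 and in 66.2% of all. A match describes these letters and does not show that a factor is bound.

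The libraries differed in depth and in RNA of other cells. Totals ran from 1439736 counts (WT replicate 2) to 18352401 (KO replicate 3). Crlf2 was at 3.55 to 9.06 CPM (reads scaled to library size, with TMM factors) in KO and at 92.8 to 146 CPM in WT, over its whole transcript row (log2 fold change -4.16, edgeR adjusted p = 0.0047). Foxp3 was at 386 to 489 CPM in KO, at 474 and 437 CPM in WT replicates 1 and 2 and at 200.1 CPM in WT replicate 3, and was not called. The 7 Treg markers summed to 3425 to 3626 CPM in KO and 3327 and 3365 CPM in WT replicates 1 and 2, but to 1796 CPM in WT replicate 3. That library stood apart: its 10 B cell markers summed to 431 CPM against 20.5 to 32.3 CPM in the other 5, its 6 CD8 T and NK cell markers to 183 CPM against 10.7 to 25.9 CPM, and its erythroid markers to 167009 CPM against 1823 to 6765 CPM. Its macrophage and monocyte markers (8 in the table) summed to 8247 CPM, against 445 and 782 CPM in the other WT libraries and 2484 to 2728 CPM in KO. The 6 germinal centre B cell markers summed to 52.7 to 66.9 CPM in KO and 45.7 to 79.4 CPM in WT, with Rgs13 among the markers at 0 throughout. S1pr2, named after its values were seen, is also in the follicular T cell list used below. It made 43.4 of the 66.9 CPM in KO replicate 1, so this sum is not specific to B cells. The 12 lung epithelial markers summed to 2393 to 18797 CPM in KO, and to 83725, 17214 and 25501 CPM in WT replicates 1 to 3. They made 0.250 to 2.03% of all counts in KO and 1.75 to 7.85% in WT. These values bear on the source of the cells, which the labels give as spleen and lymph nodes and the deposited title as lung. The tissue of origin was not tested. WT replicate 1 stood apart in lung epithelial markers. Leaving it out lost the calls of Bcl6 and Tox2 (edgeR adjusted p = 0.0621 and 0.0606), where 0.249% of all tested genes were called. Because WT replicate 3 stood apart in more of the lists, results for the members are given with and without WT replicate 3.

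**Figure D1:**
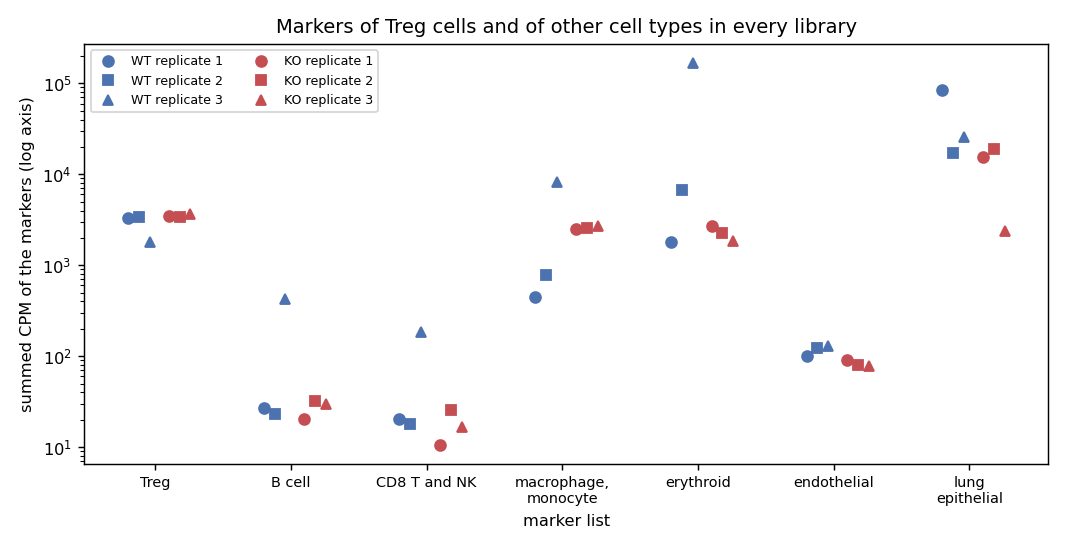
Summed TMM-scaled CPM (log axis) of markers of Treg cells and of 6 other cell types in each of the 6 libraries, WT in blue and KO in red, with the point shape giving the replicate. WT replicate 3 has the lowest Treg sum, 1796 CPM, and the highest B cell (431 CPM), CD8 T and NK cell (183 CPM) and erythroid (167009 CPM) sums. WT replicate 1 has the highest lung epithelial sum, 83725 CPM.

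In KO, Tox2 rose about 3.05-fold and Bcl6 fell about 2.10-fold. No other member was called by edgeR's quasi-likelihood test at a Benjamini-Hochberg adjusted p under 0.05. On counts simulated from these libraries, the share of false calls lay above that nominal level. The calls are therefore less certain than their adjusted p states. Cxcr5 had the lowest log2 fold change, -1.92 (SE 0.45, edgeR adjusted p = 0.0832), and did not pass. Of all tested genes 1.74% were called. So 1 of 8 tested members was called higher, where 0.755% of all tested genes were, and 1 was called lower, where 0.983% were. At an unadjusted p under 0.05 there were 5 members (Bcl6, Tox2, Tcf7, Id3 and Cxcr5), against 15.9% of all genes. Tox2 was higher in each KO library than in any WT library, as 10.4% of all tested genes were. Bcl6, Id3 and Cxcr5 were lower in each KO library, as 11.5% of all tested genes were. In either direction that share was 22.0%. The members' median log2 fold change was -0.57, and that of all tested genes -0.04. The members were chosen with earlier results of these data known, so these shares are no unbiased comparison.

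**Figure D2:**
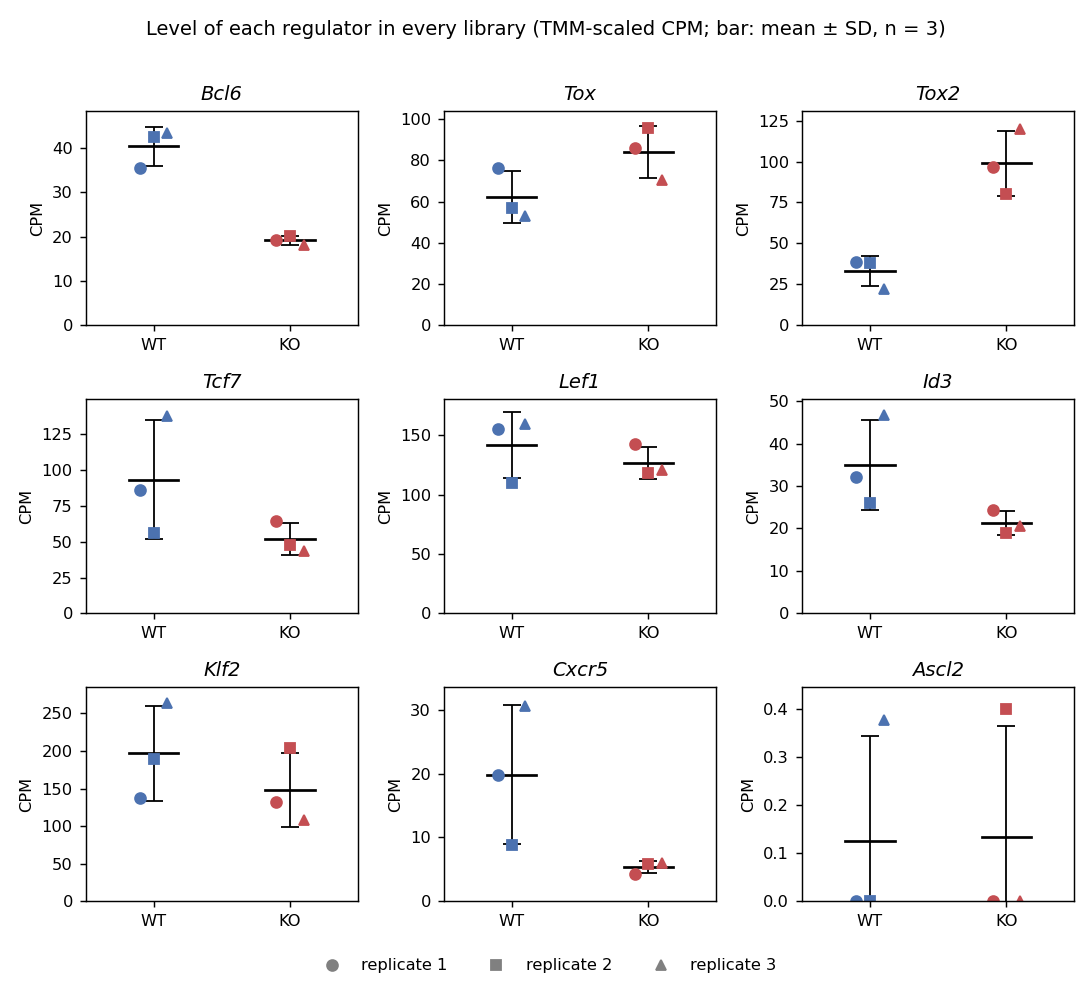
Level of each of the 9 regulators in TMM-scaled CPM in the 3 WT libraries (blue) and the 3 KO libraries (red), each panel with its own axis from 0, with mean and SD as bars and the point shape giving the replicate. The groups do not overlap for Bcl6, Tox2, Id3 and Cxcr5, and WT replicate 3 is the highest of the 6 libraries for Bcl6, Tcf7, Lef1, Id3, Klf2 and Cxcr5.

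Bcl6 (chromosome 16, 23965052 to 23988852, minus strand, GRCm38) was at 35.4, 42.4 and 43.5 CPM in WT replicates 1 to 3. In KO replicates 1 to 3 it was at 19.2, 20.3 and 18.2 CPM. Each KO library was below each WT library. The means were 40.5 ± 4.38 CPM in WT and 19.2 ± 1.04 CPM in KO (SD, n = 3 each; log2 difference -1.07 with SE 0.19, adjusted p = 0.0380 in edgeR). B cells of germinal centres also express Bcl6. Without WT replicate 3, the library rich in B cell RNA, the difference was -1.002 (edgeR adjusted p = 0.0463), where 2.13% of all tested genes were called lower. With the summed B cell markers as a covariate, an alternative added once results were known, it was -1.01 (edgeR adjusted p = 0.0421). These markers summed to 431 CPM in WT replicate 3 and 20.5 to 32.3 CPM elsewhere, so the covariate mainly sets that library apart. It is no separate check from leaving that library out, and cannot isolate B cell RNA from its other differences. The call was lost, at a log2 fold change of -1.02 to -1.16, when any other single library was left out (edgeR adjusted p = 0.0621 to 0.233), with lung epithelial markers as a covariate (-1.10, edgeR adjusted p = 0.340), and with library sizes set by 13 pan-T cell genes (-1.34, edgeR adjusted p = 0.0713). Those fits with a library left out called 0.0300 to 0.949% of all tested genes, and the pan-T fit 1.38%. The epithelial covariate fit called 0 genes, and the deleted Crlf2 was not called there either (edgeR adjusted p = 0.0620).

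CXCR5 is the receptor for the follicular chemokine CXCL13, and its gene lies on chromosome 9 (44511787 to 44561877, minus strand). Cxcr5 had 148, 13 and 324 reads in WT replicates 1 to 3, which is 19.8, 8.90 and 30.6 CPM. In KO replicates 1 to 3 it had 44, 73 and 114 reads, or 4.28, 5.84 and 5.95 CPM. The lowest WT library, the shallow replicate 2, was still above the highest KO library. The WT values were spread widely. B cells also express Cxcr5, and WT replicate 3 had both the highest Cxcr5 and the highest B cell markers. WT replicates 1 and 2 had 27.0 and 23.3 CPM of B cell markers and 19.8 and 8.90 CPM of Cxcr5. Without WT replicate 3 the log2 difference was -1.47 (SE 0.44, edgeR adjusted p = 0.111), and with B cell markers as a covariate -1.49 (SE 0.38, edgeR adjusted p = 0.0784). DESeq2 (adjusted p = 0.00262) and limma-voom (adjusted p = 0.0342) called Cxcr5 lower, where they called 3.90% and 1.38% of all tested genes lower. The B cell covariate mainly sets WT replicate 3 apart, so it cannot separate B cell RNA from that library's other differences. How much B cell RNA adds to the Cxcr5 difference was not tested.

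Ascl2, the basic helix-loop-helix factor that can induce Cxcr5, was close to undetected. It had 5 reads in KO replicate 2, 4 in WT replicate 3 and 0 in the other 4 libraries. A count of 0 allows up to 3 reads, or 0.157 to 2.05 CPM depending on the library, counting error only. No difference was detectable at this depth.

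Of the 2 TOX genes, Tox2 was called and Tox was not. Tox2 (chromosome 2, 163203125 to 163324170, plus strand) was at 38.5, 38.3 and 22.3 CPM in WT replicates 1 to 3. In KO replicates 1 to 3 it was at 96.5, 80.3 and 120 CPM. The lowest KO library was well above the highest WT library. The means were 33.1 ± 9.29 and 98.9 ± 20.0 CPM (SD, n = 3 each; log2 difference 1.61 with SE 0.25, adjusted p = 0.0271 in edgeR). Without WT replicate 3, the lowest library, the value was 1.37 (edgeR adjusted p = 0.0120, where 1.87% of all tested genes were called higher), and Tox2 was also called without KO replicate 2 (edgeR adjusted p = 0.0462). The call was lost when any of the other 4 libraries was left out (log2 fold change 1.44 to 1.79, edgeR adjusted p = 0.0606 to 0.170) and with lung epithelial markers as a covariate (1.45, edgeR adjusted p = 0.329). Those 4 fits called 0.0300 to 0.249% of all tested genes, and the covariate fit called 0 genes.

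Tox (chromosome 4, 6686353 to 6991557, minus strand) was at 76.5, 56.8 and 52.9 CPM in WT replicates 1 to 3. In KO replicates 1 to 3 it was at 85.8, 95.8 and 70.4 CPM. The groups overlapped, since KO replicate 3 was below WT replicate 1. The log2 fold change was 0.43 with a 95% interval of -0.01 to 0.87 (edgeR adjusted p = 0.329), and 0.31 without WT replicate 3. Per kb of transcript, the ratio of Tox2 to Tox was 0.857, 1.15 and 0.719 in WT replicates 1 to 3 and 1.92, 1.43 and 2.90 in KO replicates 1 to 3. Tox2 was thus the more abundant of the pair in each KO library, while in WT the pair was near balance on the deposited lengths. The deposited length of Tox is 2852 bases, and the matching GENCODE M21 transcript has 3961 exon bases, so the WT balance depends on the length used.

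Tcf7 and Lef1, which encode TCF-1 and LEF-1, were not called. Tcf7 (chromosome 11, 52252371 to 52283014, minus strand) was at 86.1, 56.1 and 138 CPM in WT replicates 1 to 3 and at 64.3, 47.9 and 43.4 CPM in KO. WT replicate 2 lay below KO replicate 1, and WT replicate 3 was far above the rest. The log2 difference was -0.87 (SE 0.31, edgeR adjusted p = 0.214), and -0.49 (SE 0.24, edgeR adjusted p = 0.317) without WT replicate 3. CD8 T and NK cells, whose markers were highest in that library, can also express Tcf7, and their part in the result was not tested. Lef1 (chromosome 3, 131110471 to 131224356, plus strand) was at 156, 110.2 and 159 CPM in WT and at 142, 118 and 121 CPM in KO replicates 1 to 3. The KO range lay within the WT range, with a log2 fold change of -0.17 and a 95% interval of -0.56 to 0.22 (edgeR adjusted p = 0.686), and -0.08 without WT replicate 3. The ratio of Tcf7 to Lef1 per kb was 0.904, 0.832 and 1.41 in WT replicates 1 to 3 and 0.737, 0.664 and 0.589 in KO. Each KO library was below each WT library, but the share of other gene pairs that separate this way was not computed. The gap between WT replicate 2 and KO replicate 1 was narrow, and WT replicate 2 had 82 Tcf7 reads.

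Lef1 was the one member with several rows in the table. The row kept, of 3657 bases, had the most reads, and the shortest row, of 2305 bases, had 69.4%, 69.8% and 75.1% of its reads in KO replicates 1 to 3 and 73.7%, 78.3% and 78.6% in WT. Whether the same reads were counted in several rows was not tested. Of the 3482 exon bases of the matching GENCODE M21 transcript, 1208 are also covered by exons of Gm43352 on the other strand. Since the strand setting of the counting is not given in the sources used here, Lef1 reads could include that antisense gene. The same overlap was 260 bases for Tox, 109 for Cxcr5, 21 for Bcl6 and 0 for the other members.

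ID3 and KLF2 hold T cells out of the follicular fate. Id3 (chromosome 4, 136143497 to 136145755, plus strand) was at 32.1, 26.0 and 46.7 CPM in WT replicates 1 to 3 and at 24.4, 18.8 and 20.7 CPM in KO. The groups did not overlap, but WT replicate 2 and KO replicate 1 were close. The log2 difference of Id3 was -0.73 (SE 0.26, edgeR adjusted p = 0.212), and -0.46 (SE 0.25, edgeR adjusted p = 0.356) without WT replicate 3. Klf2 (chromosome 8, 72319033 to 72321656, plus strand) was at 138, 189.5 and 263 CPM in WT replicates 1 to 3 and at 132, 204 and 108 CPM in KO. Its ranges overlapped over most of their width, and the log2 fold change was -0.41 with a 95% interval of -1.09 to 0.26 (edgeR adjusted p = 0.552), and -0.13 without WT replicate 3. Endothelial cells also express Klf2 strongly, and the 10 endothelial markers summed to 78.6 to 90.7 CPM in KO and 101 to 130.2 CPM in WT, with Emcn at 0 in all libraries. Their part in the result was not tested. In bulk RNA, fewer cells of a type and less RNA per cell cannot be told apart for any of these genes.

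**Figure D3:**
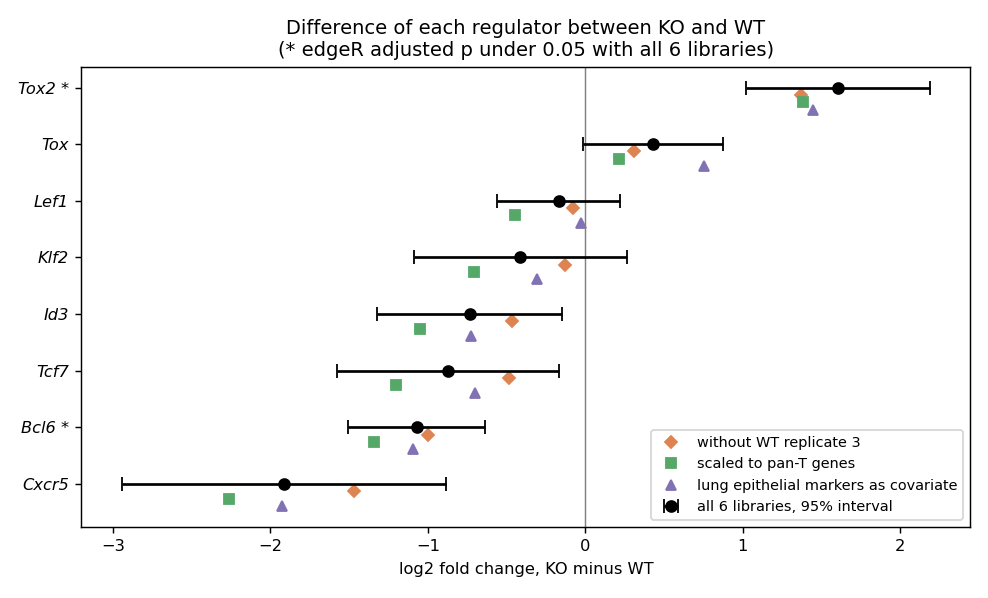
Log2 fold change (KO minus WT) of the 8 tested regulators, black points with 95% intervals from the fit on all 6 libraries, and coloured points from 3 other fits. Tox2 and Tox are above 0 and the other 6 below 0 in each of the 4 fits shown. Leaving out WT replicate 3 brings Tcf7 to -0.49, Id3 to -0.46 and Klf2 to -0.13, whereas Bcl6 is at -1.002.

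The direction of each member was the same under all 18 alternatives. With the pan-T cell genes as the scale, the median of all tested genes moved from -0.04 to -0.31. Relative to that median, Tox2 was at 1.69, Tox at 0.52, Bcl6 at -1.04, Cxcr5 at -1.96, Tcf7 at -0.90, Id3 at -0.74, Klf2 at -0.40 and Lef1 at -0.14. Counted per 10000 reads of pan-T cell genes, Bcl6 had 59.8 ± 18.6 reads in WT and 23.7 ± 3.03 in KO, and Tox2 46.3 ± 4.21 and 120 ± 15.2 (SD, n = 3 each). On that scale the groups again did not overlap for Bcl6, Tox2, Id3 and Cxcr5, where 22.3% of all tested genes did not (3.84% higher and 18.4% lower in KO).

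Levels of different genes were compared per kb of the deposited transcript length, and the order of close neighbours, such as Tox and Tox2, depends on that length. In WT the order of mean CPM per kb was Klf2 (108 ± 34.8), Tcf7 (41.7 ± 18.5), Lef1 (38.8 ± 7.50), Id3 (36.7 ± 11.2), Tox (21.8 ± 4.44), Tox2 (19.7 ± 5.55), Bcl6 (12.3 ± 1.33), Cxcr5 (7.56 ± 4.16) and Ascl2 (SD, n = 3). Tcf7, Lef1 and Id3 overlapped as neighbours, as did Tox with Tox2 and Bcl6 with Cxcr5. In KO, Tox2 stood second, at 59.1 ± 11.9 CPM per kb, behind Klf2 (81.5 ± 27.4), with which it overlapped, and above Lef1 (34.7 ± 3.68) in all 3 libraries. Tox (29.5 ± 4.48), Tcf7 (23.2 ± 4.90) and Id3 (22.4 ± 3.01) followed and overlapped as neighbours. Bcl6 (5.84 ± 0.317) and Cxcr5 (2.05 ± 0.357) came next and did not overlap with their neighbours.

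**Figure D4:**
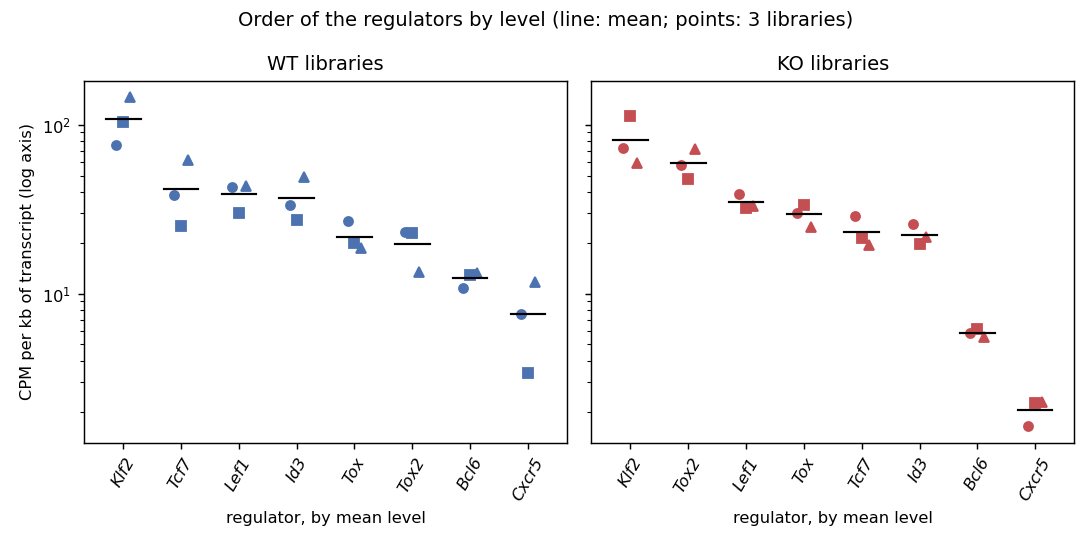
CPM per kb of transcript (log axis) of the 8 tested regulators in the 3 WT libraries (left) and the 3 KO libraries (right), ordered by the group mean, which is drawn as a line; point shapes give the replicate as in the other plots. Tox2 is the sixth regulator in WT, at 19.7 CPM per kb, and the second in KO, at 59.1.

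Genes that work with the members were taken from lists chosen for function, with earlier results of these data known. Their counts are therefore a description, not an unbiased comparison with all tested genes. Of 17 tested genes of the follicular T cell programme, 1 was called higher and 1 lower, with a median log2 fold change of -0.16. Over all tested genes 0.755% were called higher and 0.983% lower, with a median of -0.04. Without WT replicate 3 the sign of the list's median turned, to 0.095, and 2 of the 17 were called higher (Angptl2 and Pdcd1) and 3 lower (Il6st, Sh2d1a and Slamf6), where 1.87% and 2.13% of all tested genes were. Pdcd1, which encodes the inhibitory receptor PD-1 and is high in follicular and in chronically stimulated T cells, rose from 312 ± 126 to 1218 ± 199 CPM (SD, n = 3 each; log2 difference 1.97 with SE 0.32, adjusted p = 0.0360 in edgeR). Il6st, which encodes the gp130 chain through which IL-6 signals to induce Bcl6, was at 144, 109 and 117 CPM in WT replicates 1 to 3 and at 51.1, 62.4 and 41.7 CPM in KO (log2 difference -1.26 with SE 0.19, adjusted p = 0.0246 in edgeR). Neither gene had overlapping groups.

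Of 16 central and resting T cell genes, 14 had a negative log2 fold change, as 54.2% of all tested genes had, 3 were called lower and 1 higher, with a median of -0.76 (-0.48 without WT replicate 3, where 12 were negative and 4 were called lower). These counts stand beside 0.755% of all tested genes called higher and 0.983% lower, or 2.13% lower without WT replicate 3. Ly6c1, a surface protein of central memory and resting cells, fell from 73.8 ± 9.93 to 13.4 ± 2.54 CPM (SD, n = 3 each; edgeR adjusted p = 0.0047). Txk, a Tec family kinase of resting T cells, fell from 43.7 ± 11.4 to 15.6 ± 1.11 CPM (log2 difference -1.48 with SE 0.24, adjusted p = 0.0298 in edgeR). Il7r, the IL-7 receptor gene that FOXO1 controls, rose from 121 ± 25.3 to 294 ± 29.8 CPM (edgeR adjusted p = 0.0162). Among 5 genes listed as KLF2 and FOXO1 targets of lymphocyte traffic, 1 was called higher and 1 lower. The gene called higher was Il7r, which encodes a cytokine receptor and not a traffic molecule.

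Id2, the relative of Id3 that accompanies effector differentiation, rose, whereas Id3 had a negative difference and was not called. Id2 was at 273, 356 and 369 CPM in WT replicates 1 to 3 and at 705, 623 and 795 CPM in KO (log2 difference 1.09 with SE 0.15, adjusted p = 0.0182 in edgeR). It was the 1 gene called among the 5 E protein and Id genes tested beside Id3. Over all tested genes 0.755% were called higher and 0.983% lower. Among 10 tested genes listed as opposing BCL6 or the follicular fate, Klf2 aside, Id2 was called higher. Socs1, placed in that list although it is a feedback inhibitor of cytokine signalling, was called lower (373 ± 88.9 to 171 ± 4.17 CPM, SD, n = 3 each, edgeR adjusted p = 0.0269). Foxo1 was called lower as well when WT replicate 3 was left out, where 2.13% of all tested genes were called lower.

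The partners of these factors were not called by edgeR with all 6 libraries. Of 13 TCF, TOX and Wnt pathway partners 0 were called and 3 had an unadjusted p under 0.05. Over all tested genes 1.74% were called and 15.9% had such a p. Those of smallest p were Tcf7l1, a TCF family member with means of 5.26 ± 3.08 CPM (WT) and 1.04 ± 0.277 CPM (KO) (edgeR adjusted p = 0.119), and Axin2, a feedback target of Wnt signalling, at 43.6 ± 11.1 and 67.3 ± 4.12 CPM (SD, n = 3 each; edgeR adjusted p = 0.156). Of 13 BCL6 corepressors 0 were called and 1 had an unadjusted p under 0.05. In the fit without WT replicate 3, 4 had, as 19.1% of all tested genes had. Those of smallest p with all libraries were Ncor1 (log2 fold change 0.33, SE 0.12) and Bcor (-0.39, SE 0.19), which encode corepressors that bind BCL6. Of 11 Kruppel-like factors beside Klf2, 0 were called and 0 had an unadjusted p under 0.05, with Klf7 at -0.45 (SE 0.21) and Klf5 at -1.66 (SE 0.83) on the log2 scale. When WT replicate 3 was left out, edgeR called 1 of the 11 higher (Klf4, named after its values were seen), and 3 had an unadjusted p under 0.05. Of all tested genes 1.87% were called higher there and 19.1% had such a p. The B cell covariate, which mainly sets that library apart, gave the same counts (1.71% and 19.0% of all tested genes). Klf4 was at 2.94, 2.05 and 26.5 CPM in WT replicates 1 to 3 and 10.9 to 12.2 CPM in KO. Macrophage and monocyte markers were likewise highest in WT replicate 3 and lowest in the other WT libraries. Their part in the Klf4 call was not tested. Of the 8 companion genes called in all, the same 8 were called in the same direction without WT replicate 3, where 4.01% of all tested genes were called. Leaving out another library kept 0 (KO replicate 1), 4 (KO replicate 2), 1 (KO replicate 3), 2 (WT replicate 1) and 2 (WT replicate 2) of them. Those fits called 0.0300 to 0.949% of all tested genes. None of the 8 was called with lung epithelial markers as a covariate, where 0 of all tested genes were. When scaled to pan-T cell genes 5 of the 8 were called, Id2 and Txk being among those lost.

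**Figure D5:**
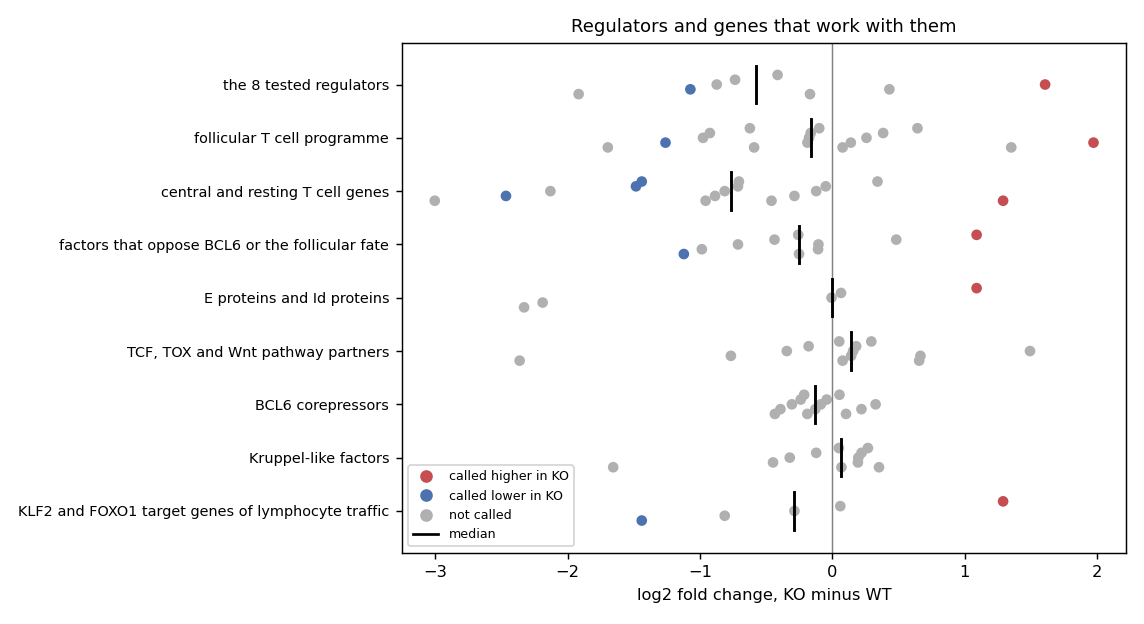
Log2 fold change (KO minus WT) of the 8 tested regulators and of the tested genes of 8 lists of genes that work with them, the regulators themselves left out of those lists; each point is a gene, red or blue where edgeR called it higher or lower in KO, and the black line is the list's median. The central and resting T cell genes have the lowest median of the 8 lists, -0.76, and 14 of their 16 points are below 0.

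For each tested member, the gene of most similar pattern over the 6 libraries was sought by Pearson's r of log2 CPM among 10174 other genes. It was Upp1 for Bcl6 (r = 0.994), Ndfip1 for Tox2 (r = 0.999), Wash for Tox (r = 0.988) and Ceacam1 for Tcf7 (r = 0.989). For Lef1 it was Psme3 (r = 0.991), for Id3 Nfe2l2 (r = 0.990), for Klf2 Tbl1xr1 (r = 0.995) and for Cxcr5 Sp140 (r = 0.999). These values describe 6 points that share group, depth and cell mixture, and no test was made.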

How the data were processed

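RNA-seq libraries of sorted mouse Treg cells, 3 KO and 3 WT, were analysed. The deposited table holds whole read counts for each RefSeq transcript and, in a further column, its length, as its header and values show. The submitters' processing notes name mm10 as the build and list Bowtie2 2.2.6, TopHat2 2.2.1 and bcl2fastq. Which program counted the reads, with which annotation and strand setting, is not given in the sources used here. One row per symbol, that of highest total, was kept. Genes passing filterByExpr (minimum count 10, minimum total 15) were scaled by TMM and compared with edgeR 4.0.16 (glmQLFTest after a robust glmQLFit, R 4.3.3), with Benjamini-Hochberg adjustment over all 12720 genes and calls at an adjusted p under 0.05. SE is the absolute log2 fold change over the square root of F. On counts simulated from these libraries, the share of false calls lay above the nominal level. CPM per kb used the deposited length. Positions are from GENCODE M21 (GRCm38, the assembly of mm10), which placed all 11 genes looked up on the table's chromosomes.

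The members and lists were chosen with earlier results of these data known. Named were all members, Crlf2 and Foxp3, and, from each list, up to 4 called genes of smallest p or, where none was called, the 2 of smallest p, and for each tested member the gene of most similar pattern among those with a mean of at least 5 CPM in either group, unnamed loci left out; others are marked. A gene that this rule names is counted but not reported here. Alternatives were other scalings, DESeq2 1.42.0, limma-voom (limma 3.58.1) with and without quality weights, non-robust estimation, no filter, the longest transcript row, a replicate block, marker covariates and each library left out. Marker covariates were the log2 of the summed CPM of a list, where the planned wording was the sum of log2 CPM. Replicate numbers were not used as a block, since the labels do not say what they stand for. No pair of libraries in a group agreed within sampling noise (lowest chi-square per degree of freedom 15.8).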

Additional observations from a re-analysis of the deposited data

How the results depend on the processing

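All 8 tested members kept their direction under the 18 alternatives, of which the B cell covariate was added after the data were seen. The number of genes called, 221, became 863 with DESeq2, 123 with the replicate block, 0 with lung epithelial markers as a covariate (1049 at an unadjusted p under 0.05 in edgeR) and 474 with B cell markers as a covariate. It ranged from 4 to 518 when single libraries were left out. The number of members called higher (1) became 0 with the replicate block and with the epithelial covariate, and 0 to 1 with a library left out. The number called lower (1) became 2 with DESeq2 and with limma-voom, 0 when scaled to pan-T genes, with the replicate block or with the epithelial covariate, and 0 to 1 with a library left out. Scaled to pan-T genes, 29 genes were called higher and 146 lower, against 96 and 125. With the replicate block the edgeR adjusted p was 0.104 for Bcl6 (-1.07) and 0.0834 for Tox2 (1.62), and 5 of the 8 companion genes kept their call, Pdcd1 and Txk being among those that lost it. Deviations of same-numbered libraries had r of 0.08, -0.15 and -0.04 across genes, so the numbers were not taken to pair the samples. Foxp3, not called, moved from 0.23 to -0.067 without WT replicate 3 and to -0.0098 with the B cell covariate, and ranged from -0.067 to 0.47 with single libraries left out. Where the cause of a change is not in the construction of the alternative, the cause was not tested. WT replicate 2 limits what low genes can show: 13 reads of Cxcr5 and a limit of 2.05 CPM for a count of 0.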

Other observations

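Other genes around the follicular and central programmes, named after their values were seen, had groups that did not overlap without being called with all 6 libraries. 22.0% of all tested genes had such groups. Prdm1, which encodes BLIMP-1, the factor that opposes BCL6, had a mean of 94.4 ± 15.7 CPM in the WT libraries and of 132 ± 11.9 CPM in the KO libraries (SD, n = 3 each), a log2 difference of 0.48 (SE 0.16, edgeR adjusted p = 0.192). Maf, a factor of follicular and IL-10-producing T cells, had a log2 difference of 0.64 (SE 0.21), and Angptl2, a secreted protein gene, 1.35 (SE 0.32, edgeR adjusted p = 0.0902). Lower in each KO library than in each WT library were Foxo1, a factor that sustains Klf2 and Il7r (-0.71, SE 0.23), Bach2, a repressor that preserves resting T cells (-0.96, SE 0.25), and Slamf6, a receptor of stem-like and follicular T cells (-0.93, SE 0.24). The same held for the inhibitory receptor gene Btla (-0.98, SE 0.32), the IL-6 receptor gene Il6ra (-0.59, SE 0.14, edgeR adjusted p = 0.0822) and the SLAM adaptor gene Sh2d1a (-0.62, SE 0.21). Without WT replicate 3, edgeR called Foxo1 (adjusted p = 0.0401), Slamf6 (adjusted p = 0.0182), Sh2d1a (adjusted p = 0.0402) and Angptl2 (adjusted p = 0.0212), in a fit that called 4.01% of all tested genes. Each of these 4 was called in that 1 of the 6 fits with a library left out, and the highest adjusted p of those fits was 0.503 for Foxo1, 0.380 for Slamf6, 0.484 for Sh2d1a and 0.317 for Angptl2.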
